A study of Mus musculus with 2 samples.

Results

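The 34 genes described here are marker and effector genes of T cells and cytotoxic lymphocytes, taken by symbol from the 55487 genes counted in sorted mouse Langerhans cells. They comprise constant regions of the T cell receptor, CD3 chains, signalling kinases and adaptors, adhesion and costimulatory molecules, coreceptors, cytokines, cytotoxic granule proteins, a natural killer receptor and lineage transcription factors. All 34 were found, 30 as protein-coding genes and 4 as receptor constant regions. They address which lymphocyte transcripts came along with the sort.

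The study concerns the serotonin receptor HTR2A, IL-23 from Langerhans cells that its title calls monocyte-derived, and psoriatic inflammation. Its single group held 2 RNA sequencing libraries, both HTR2A-/-, from ear cells that were stained for CD207 and MHC II, sorted as Langerhans cells, and kept for 24 hours with imiquimod, a Toll-like receptor 7 agonist, and an agent labelled a-CD40L. The column without a replicate number is called library 1 (69925160 counts) and the column numbered 2 is called library 2 (42264685 counts). Strain, age, the number of mice and the form of the knockout allele were not given in the labels, and nothing says that the samples came from separate animals. No wild-type or untreated sample entered the comparisons, so every difference below is one between replicates.

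A T cell recognises antigen through a receptor of 2 variable chains, either α and β or γ and δ, which signals through the CD3 chains to the kinases LCK and ZAP70. Mouse epidermis holds, beside Langerhans cells, a resident γδ population called dendritic epidermal T cells. Nearly all of these carry 1 invariant receptor whose variable domains come from the segments Tcrg-V5 and Trdv4, joined to Trgj1 and Trdj2. They contact keratinocytes and Langerhans cells, carry the NKG2D receptor encoded by Klrk1, and hold perforin and granzymes.

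The germline pieces of that receptor are shown because Tcrg-V5 and Trdv4 led the counts of γ and δ variable segments, and the joining segments complete it. The sequences are from GENCODE M21 on GRCm38, plus strand. Shown are the last 60 bases of Tcrg-V5 (chr13:19192666-19192725), all of Trgj1 (chr13:19210343-19210402), the last 60 bases of Trdv4 (chr14:54075456-54075515) and all of Trdj2 (chr14:54136779-54136837). Capitals mark TACTACTGT, the stretch that both variable segments share near their end and that holds the codon of the conserved cysteine, and TTTGG in the joining segment Trdj2. The bases after TACTACTGT are the start of the part of the receptor that meets its ligand.
Tcrg-V5: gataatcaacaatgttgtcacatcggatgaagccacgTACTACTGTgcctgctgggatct
Trgj1: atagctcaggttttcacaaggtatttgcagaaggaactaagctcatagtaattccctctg
Trdv4: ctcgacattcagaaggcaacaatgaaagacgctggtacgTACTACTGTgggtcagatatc
Trdj2: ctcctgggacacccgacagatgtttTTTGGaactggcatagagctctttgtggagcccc

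Levels are CPM, the counts scaled to a library total of 1e6, and levels are compared between genes as CPM per kb of exon except where counts are named. Genes that skin cells are not known to use also carried counts, so 1135 olfactory receptor genes served as background. The limit for a gene to stand above background was the 95th percentile of CPM per kb over these genes, 0.761 in library 1 and 1.58 in library 2. Their medians were 0.221 and 0.645 CPM per kb. The sorted cell type was present, since Cd207 (langerin) reached 1125 CPM in the first library and 1052 in the second. Krt14, a keratinocyte gene, was at 748 CPM per kb against 739 for Cd207 in library 1, and at 2734 against 691 in library 2. All intervals are exact 95% intervals and cover counting error only.

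Of the 34 genes, 16 exceeded the limit in both libraries, 9 exceeded it in library 1 only and 9 exceeded it in neither. Among 20839 protein-coding genes other than olfactory receptors, the share above background in both libraries was 49.8%, so the members' count lay near that of genes at large. In library 1 by itself 25 of 34 members were above background, against 58.9% of protein-coding genes, and in library 2 by itself 16 of 34, against 52.9%. The 34 genes summed to 442 CPM in each library, but Gata3 and Thy1 carried most of the sum in library 2. Without those 2 genes, singled out after their values were seen, the sums were 383 CPM in library 1 and 148 CPM in library 2.

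**Figure D1:**
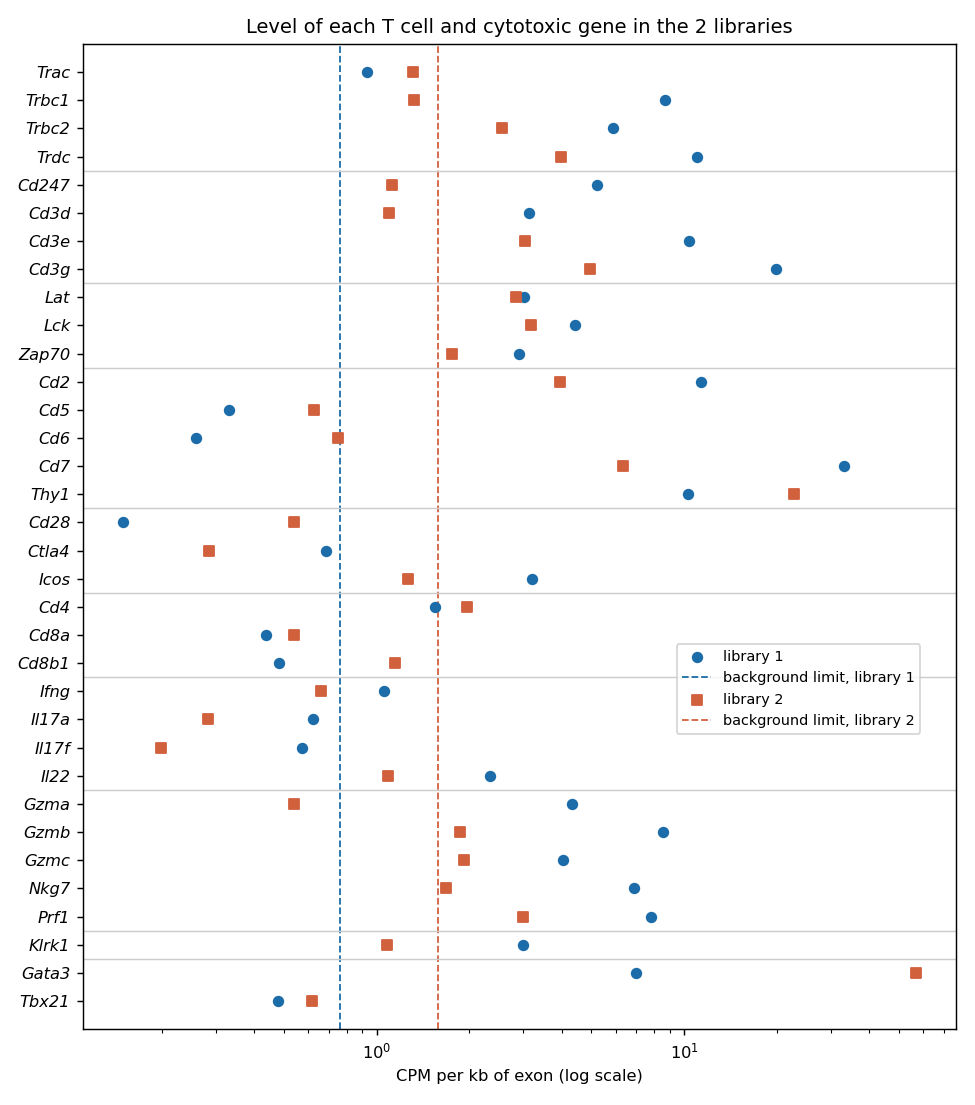
Level of each of the 34 genes in CPM per kb of exon on a log axis, with circles for library 1, squares for library 2, grey lines between functional groups and dashed lines at the background limit of each library (0.761 and 1.58). CD3, cytotoxic and most receptor genes lie to the right of the limit in library 1 and closer to it in library 2, whereas Thy1 and Gata3 are higher in library 2.

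Constant regions of the γ and δ chains took most of the counts, which are not divided by length here. Of the 5622 counts over 8 constant regions in library 1, 2969 were in Trdc and 1855 in the 4 γ genes, and of 1309 in library 2, 651 and 489. Trdc, the δ constant region (ENSMUSG00000104876, GRCm38 chr14:54142851-54148868, plus strand), thus stood at 42.5 CPM in library 1 (40.9 to 44.0) and at 15.4 in library 2 (14.2 to 16.6), with a mean of 28.9 ± 19.1 (SD, n = 2). Its exons overlap 207 bp of Trdv5 on the opposite strand. Trac, the α constant region (ENSMUSG00000076928, chr14:54220521-54224206, plus strand), lies in the same locus and had 61 and 52 counts. At 0.872 and 1.23 CPM it was above background in library 1, at percentile 96.9 of the olfactory receptor genes, and not in library 2, at percentile 90.0. Per kb of exon Trdc exceeded Trac 11.8 times in library 1 and 3.03 times in library 2.

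The β constant regions lay between Trdc and Trac per kb. Trbc1 (chr6:41538218-41539881) had 453 counts in library 1 and 42 in library 2, and Trbc2 (chr6:41546730-41548352) had 284 and 75. Trbc1 was the more abundant in library 1 and Trbc2 in library 2, where Trbc1 was within background. Of their 50-base stretches, 40.5% of those of Trbc1 and 44.0% of those of Trbc2 occur in the other gene, so how reads were split between these near copies is not certain. Trdc made up 41.6% of the summed level of the 4 constant regions per kb in library 1 and 43.4% in library 2 (42.5% ± 1.27, SD, n = 2). The annotated exons of Trdc, 3865 bp in all, include a long 3′ untranslated region, and without division by length its share was 79.1% on average.

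Within the γ locus and within the δ locus, 1 variable segment led the counts. Tcrg-V5 had 446 of the 642 counts over 7 γ variable segments in library 1, or 69.5% (exact Clopper-Pearson interval 65.7 to 73.0), and 93 of 162 in library 2, or 57.4% (49.4 to 65.1). Trdv4 had 1156 of 1225 counts over 5 δ variable segments in library 1, or 94.4% (92.9 to 95.6), and all 426 in library 2. The other 4 δ segments therefore had 0 counts in library 2, and 3 to 36 in library 1. Both named segments are those whose ends are printed above.

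The β variable segments, with pseudogenes left out here and for the α segments, gave no such leader. Over 22 segments there were 112 counts in library 1 and 148 in library 2, at most 32 and 35 in any segment. Above background in both libraries were 0 of 22, against 14997 of 55227 genes with an exon length. Of 13 β variable pseudogenes, 1 was above background in both, and Trbv18 had the most counts (39 and 87). The 100 α variable segments had 964 and 1340 counts, with at most 69 and 126 in any segment. Of these 100, 8 were above background in both libraries, against the same 14997 of 55227 genes, and 62 had a higher CPM in library 2. By total counts, the median log2 ratio over all genes with at least 1 CPM in a library was also toward library 2 (0.65). The olfactory receptor background was higher there too, and its part in the α counts was not tested. The most abundant α segments, Trav6-6 and the related Trav6d-6, had the same counts as each other (69 and 126). The split between these near copies is therefore uncertain. Each was below Tcrg-V5 in library 1, at 2.87 against 18.7 CPM per kb. In library 2 each was above it, at 8.67 against 6.45.

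Of the remaining γ genes, Tcrg-C1, the constant region used with Tcrg-V5, had 1514 and 255 counts, or 21.7 and 6.03 CPM. Tcrg-C4, at 211 and 147 counts, and the segment Trgv2, at 58 and 37 counts, were also above background in both libraries. Tcrg-C2, at 112 and 50 counts, was above background in library 1. Tcrg-C1 shares 34.2% of its 50-base stretches with Tcrg-C2 and Tcrg-C3. Tcrg-V4 and Tcrg-V6, variable segments of γδ T cells of the dermis and other tissues, had 40 counts each in library 1 and 5 and 0 in library 2. Joining segments are too short for a level per kb and are given as counts: Trdj2 had 68 in library 1 and 5 in library 2, Trdj1 had 16 and 26, and Trgj1 had 33 and 0.

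**Figure D2:**
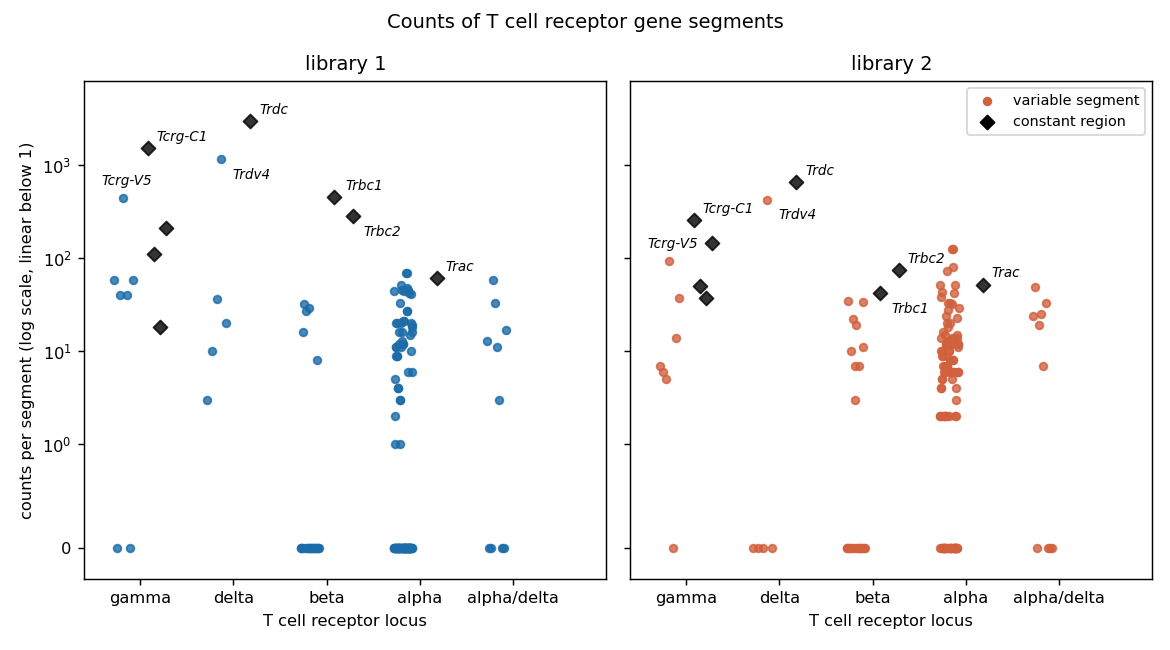
Counts of each variable segment (circles) and constant region (diamonds) by T cell receptor locus in library 1 (left) and library 2 (right). The axis is log and linear below 1. Segments used by both α and δ chains stand apart as alpha/delta, and pseudogenes are left out. Trdc, Tcrg-C1 and Trdv4 lead in both panels. The α variable segments form a column that reaches 69 in library 1 and 126 in library 2, where Tcrg-V5 had 93.

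The CD3 chains, which carry the receptor's signal into the cell, were all above background in library 1 and were 2.86 to 4.66 times lower by CPM in library 2. Cd3g (ENSMUSG00000002033, chr9:44969572-44980431, minus strand) was the most abundant, with 65.1 CPM in the first library and 16.2 in the second (40.6 ± 34.6, SD, n = 2). Cd3e, which lies near it on the same strand (chr9:44998740-45009627), was at 42.4 and 12.4 CPM. Cd3d, transcribed away from Cd3g on the plus strand (chr9:44981786-44987339), was at 5.69 and 1.99 CPM and was within background in library 2. Cd247, the ζ chain, was at 27.8 and 5.96 CPM, and in library 2 stood at percentile 83.5 of background genes.

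Within the CD3 complex the order per kb was Cd3g, Cd3e, Cd247 and Cd3d in both libraries. The levels were 19.9, 10.4, 5.21 and 3.14 CPM per kb in library 1 and 4.95, 3.05, 1.12 and 1.10 in library 2, where the last 2 did not differ beyond counting error. Of the 5329 bp of Cd247 exon, 3007 bp overlap Pou2f1 on the opposite strand, and whether counting used strand is not stated in the sources at hand, so its value may hold reads of Pou2f1. The summed CD3 level per kb was 5.23% of that of Cd207 in library 1 and 1.48% in library 2 (3.35% ± 2.65, SD, n = 2). In bulk RNA, fewer T cells and less CD3 RNA per cell cannot be told apart.

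Signalling genes directly below the receptor were above background in both libraries and differed less between them than the CD3 chains did. Lck, the kinase that phosphorylates CD3, was at 13.0 and 9.35 CPM, Zap70, the kinase recruited next, at 8.71 and 5.25 CPM, and the adaptor gene Lat at 8.32 and 7.88 CPM. The counting intervals of Lat overlapped (7.66 to 9.03 and 7.06 to 8.77 CPM). Lat is also made by mast cells, whose genes Kit (26.8 and 18.7 CPM) and Hdc (35.3 and 20.9 CPM) were above background in both libraries, while Cpa3 (0.715 and 1.18 CPM) was within it and Fcer1a had 0 counts in both. The part of mast cells in the Lat value was not tested.

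Among surface molecules, Cd7, an early T and natural killer cell antigen, had the highest level of all 34 genes per kb in library 1, at 33.2 CPM per kb, and was at 6.35 in library 2. Its CPM were 37.6 (36.2 to 39.1) and 7.19 (6.41 to 8.05), so library 1 exceeded library 2 by 5.23 times. Cd2, an adhesion receptor of T cells, was at 19.8 and 6.86 CPM. Cd5 and Cd6, receptors related to each other that are high on most αβ T cells, were within background in both libraries, at 1.63 and 3.08 CPM for Cd5 and 2.06 and 5.96 CPM for Cd6.

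Thy1 and Gata3 went the other way from the CD3 chains. Thy1, a surface antigen of mouse T cells that fibroblasts also carry, had 30.9 CPM in the first library and 68.3 in the second. Gata3, a transcription factor of T cells, type 2 lymphoid cells and also of keratinocytes and hair follicles, was at 27.9 and 226 CPM, or 8.12 times higher in library 2. Per kb Gata3 ranked 10 of 34 in library 1 and 1 in library 2. In the same direction, 5 of 5 keratinocyte genes were at least 2-fold higher in library 2, against 24.5% of genes. The 5 were Krt14, Krt5, Krt1, Krt10 and Dsp, and their summed CPM was 3641 in library 1 and 12400.5 in library 2. Of 4 fibroblast genes, Col1a1 (35.6 and 8.85 CPM), Col1a2 and Col3a1 were at least 2-fold lower in library 2, against 12.6% of genes. These 3 were above background in library 1 only, and Pdgfra (5.39 and 7.69 CPM) was within background in both. Both shares of genes are for the TMM scaling described below, over genes with at least 1 CPM in a library. The part of other cells in the Thy1 and Gata3 values was not tested.

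Above background in both libraries were 1 of 3 coreceptor genes and 0 of 3 costimulatory genes, against 49.8% of protein-coding genes. In library 1 it was 1 of 3 in each group, against 58.9%. Cd8a (1.59 and 1.96 CPM) and Cd8b1 (0.715 and 1.70 CPM), which encode the chains of CD8, were within background in both libraries, as were Cd28 (0.915 and 3.31 CPM) and Ctla4 (1.60 and 0.662 CPM), receptors for B7 molecules. Cd4, a coreceptor that some myeloid cells also make, was above background in both, at 6.25 and 7.95 CPM. Icos, the receptor of ICOS ligand, had 767 counts in library 1 (11.0 CPM) and 184 in library 2 (4.35 CPM), and was above background in library 1 only.

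Of the 5 cytotoxic genes, 5 were above background in library 1, against 58.9% of protein-coding genes, and 4 in both libraries, against 49.8%. Prf1, which encodes perforin, the pore-forming protein, was at 20.2 and 7.76 CPM (14.0 ± 8.79, SD, n = 2). Gzmb, a granzyme that triggers cell death, was at 12.3 and 2.67 CPM, and Nkg7, a granule protein, at 6.26 and 1.54 CPM. Gzmc was at 3.60 and 1.73 CPM. Gzma had 303 counts in library 1 and 23 in library 2, the widest gap of the group (7.96 times by CPM), and was within background in library 2. The order Gzmb over Gzma held in both libraries per kb, at 8.53 against 4.31 and at 1.86 against 0.541.

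Klrk1, which encodes the activating receptor NKG2D of epidermal γδ T cells, CD8 T cells and natural killer cells, was at 21.6 and 7.76 CPM. It exceeded the limit in library 1 but not in library 2, where it stood at percentile 82.0. Tbx21, the T-bet factor of type 1 lymphocytes, was within background in both libraries, at 1.19 and 1.54 CPM.

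Cytokine transcripts of T cells were at the lower end. Il17a, the main cytokine of IL-23-responsive T cells, had 51 counts in library 1 and 14 in library 2, and Il17f had 81 and 17, all within background. Il22, which acts on keratinocytes, had 181 and 51 counts and was above background in library 1, at 2.33 CPM per kb, and within it in library 2, at 1.09. Of its 50-base stretches 41.0% also occur in the near copy Iltifb. Ifng had 96 and 36 counts and was above background in library 1 only, at percentile 97.5 there and 51.6 in library 2. A level at or below background does not show that a gene was silent in any T cells present.

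To set the 2 libraries side by side, counts were scaled by TMM and expressed as the log2 ratio of library 2 over library 1. With 1 library on each side there is no test, and a gene was called different where the ratio was at least 2-fold. Of the 34 members 33 had at least 1 CPM in a library, Il17a being the exception. Trbc1, Gzma, Ctla4, Ifng and Il17f reached 1 CPM in library 1 only, and Trac, Cd28 and Cd8b1 in library 2 only, so these 8 entered through the library where they were higher. Of the 33, 21 were at least 2-fold lower in library 2, against 12.6% of 30373 genes, and 3 were at least 2-fold higher, against 24.5%. The members' median was -1.68, beside 0.15 over all genes. TMM lowered every ratio by 0.501 (log2) against total counts.

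With total counts 19 members were at least 2-fold lower, against 5.48% of genes, and 5 at least 2-fold higher, against 38.6%. The members' median was then -1.19, beside 0.65 for all genes. Over the genes above background in both libraries, 18.5% were at least 2-fold lower and 6.23% at least 2-fold higher with TMM, and their median was -0.33. Of the 16 members in that set, 11 were at least 2-fold lower and 1 was at least 2-fold higher.

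The median of the 4 CD3 chains was -2.39, with single values from -2.72 (Cd247) to -2.01 (Cd3d). Trdc was at -1.96 (counting interval -2.09 to -1.84), Cd2 at -2.03, Klrk1 at -1.97, Prf1 at -1.88 and Icos at -1.83. Outside the 34 genes, Tcrg-C1 was at -2.34 and Tcrg-V5 at -2.03. Lower values than those of the CD3 chains were those of Gzma (-3.44), Trbc1 (-3.18) and Cd7 (-2.88).

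Set against Cd3e within each library, some receptor genes were in similar proportion per kb in both libraries and others were not. Trdc was at 106% of Cd3e in library 1 and 131% in library 2, Tcrg-C1 at 225% and 214%, Tcrg-V5 at 180% and 212%, and Cd3g at 191% and 162%. Trdv4 did not keep its proportion, at 358% and 744%, nor did Trac, at 8.97% and 43.1%, or Trbc1, at 83.2% and 43.5%. Of the signalling genes, Lck was at 42.6% and 105% and Lat at 28.9% and 93.3%. Over the 34 genes Spearman's rho between the 2 libraries' levels per kb was 0.806, a description across genes, which are not independent replicates.

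A second set of members differed little or was higher in library 2. Lck (-0.97) and Lat (-0.58) were lower by less than 2-fold, and Zap70 was at -1.23. The counting intervals of Trac, Tbx21, Cd4 and Cd8a included 0, and these 4 genes changed sign with total counts. Cd28 (1.34) and Cd6 (1.03) were at least 2-fold higher but within background in both libraries. Gata3 (2.52) was the member at least 2-fold higher that was also above background in both. Thy1 was at 0.64 with TMM and 1.14 with total counts.

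**Figure D3:**
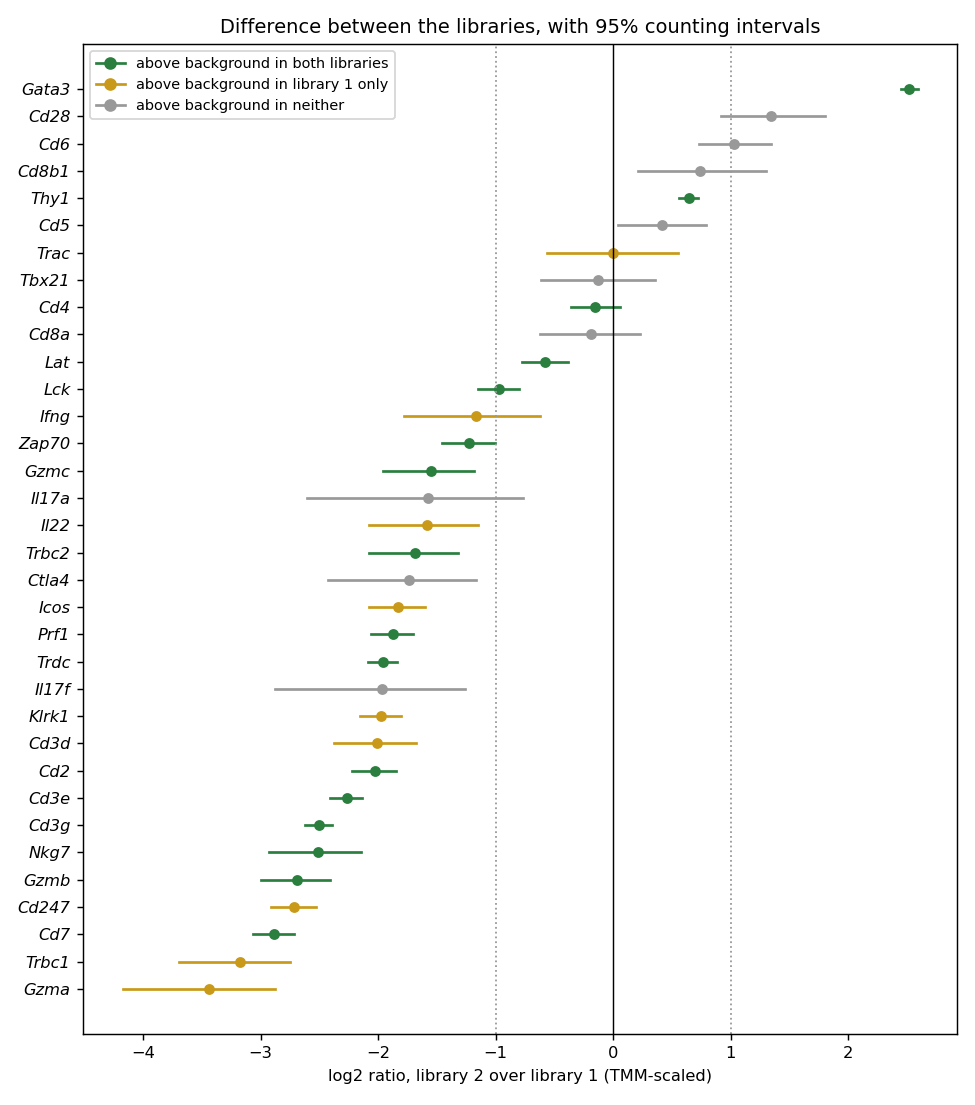
Log2 ratio of library 2 over library 1 for each of the 34 genes with its 95% counting interval, ordered by value and coloured by whether the gene was above background; dotted lines mark 2-fold. Gzma, Trbc1, Cd7 and the CD3 chains are at the bottom and Gata3 at the top, and 9 genes in grey were within background in both libraries, among them Cd28, Cd6, Cd8b1 and Cd5 above 0 and Ctla4, Il17a and Il17f below it.

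Other cell type markers also differed between the libraries. The Langerhans cell genes Cd207, Epcam, Mfge8, Cd74 and H2-Ab1 were all lower in library 2 with TMM (median -1.32), at 18157.5 and 9368 CPM summed. At least 2-fold lower were 3 of 5 with TMM, against 12.6% of genes, and 1 of 5 with total counts, against 5.48%. With total counts Epcam was higher in library 2. The mature dendritic cell genes Ccr7, Fscn1, Ccl22 and Cd83 had a TMM median of -3.21, at 2521 and 567 CPM summed. At least 2-fold lower were 4 of 4, both with TMM, against 12.6% of genes, and with total counts, against 5.48%. The keratinocyte genes had a median of 1.26, and none of these genes was at 0. Their part in the T cell differences was not tested.

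**Figure D4:**
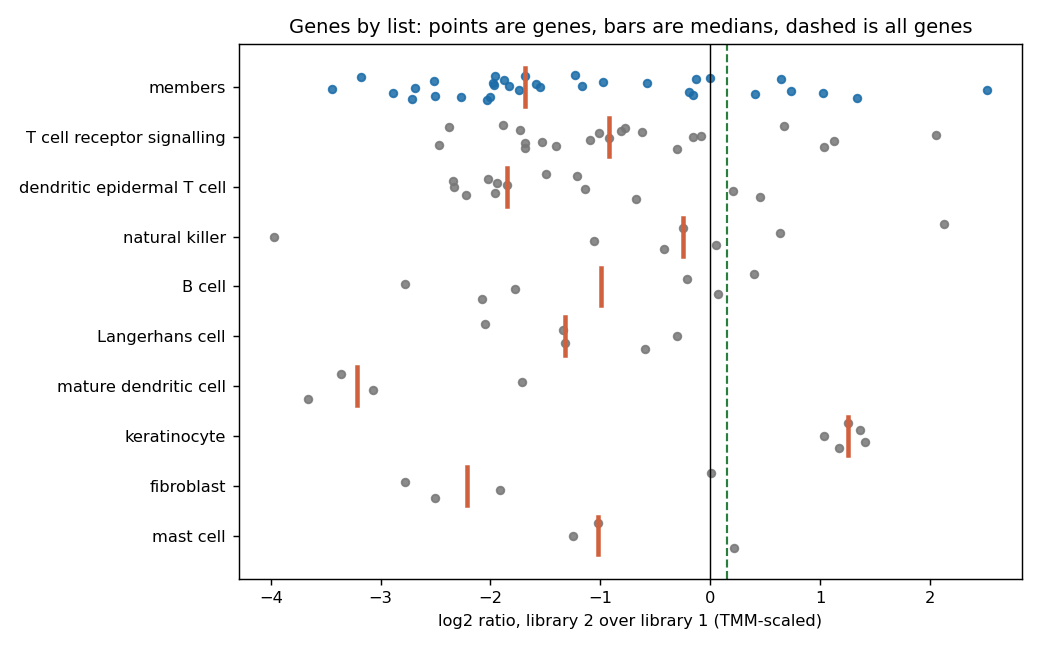
Log2 ratio of library 2 over library 1 by gene list, with points for genes of at least 1 CPM in a library, orange bars for list medians and a dashed line for the median of all genes (0.15). The 34 genes (blue, median -1.68) and the dendritic epidermal T cell list lie mostly below 0, the mature dendritic cell genes lower still, and the keratinocyte genes above 0.

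Other genes were read from lists of markers, and bulk RNA does not show which cells their transcripts came from. Of 13 genes listed for dendritic epidermal T cells, 9 exceeded the limit in both libraries, against 49.8% of protein-coding genes. In library 1 the limit was exceeded by 11, against 58.9%. At least 2-fold lower in library 2 were 10 of them with TMM, against 12.6% of genes, and 8 with total counts, against 5.48% (TMM median -1.85). Fgf7 (1.40 and 2.30 CPM) and Cd160 (1.79 and 3.48 CPM) were within background in both. Besides Tcrg-V5, Trdv4 and Tcrg-C1, the genes above background in both included Il2rb, a receptor chain for IL-2 and IL-15 (61.6 and 17.2 CPM). Itgae, the integrin that binds E-cadherin and is also found on dendritic cells (56.2 and 22.0 CPM), and Cd69, an activation antigen (48.7 and 14.7 CPM), were also above it. Areg, a growth factor that keratinocytes also make, was at 69.6 and 61.5 CPM. Jaml, a costimulatory receptor of these cells, was above background in library 1 only, at 12.8 and 4.68 CPM, and Xcl1, a chemokine of these cells, had 144 and 43 counts and was above it in both.

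Of 22 further genes of T cell receptor signalling and identity, 11 were above background in both libraries, a share near the 49.8% of protein-coding genes. Among the 21 with at least 1 CPM in a library, 10 were at least 2-fold lower in library 2, against 12.6% of genes, and 3 at least 2-fold higher, against 24.5%. Tcf7, a T cell transcription factor, was at 27.7 and 11.8 CPM, and Grap2, an adaptor, at 75.8 and 19.4 CPM. Trat1, which associates with the receptor, was at 26.6 and 7.24 CPM and was above background in library 1 only. Bcl11b, a T cell lineage factor, was at 36.4 and 41.7 CPM, and Rasgrp1, an activator of RAS, at 14.2 and 19.0 CPM. The 3 higher genes, Lef1, Cd27 and Sh2d1a, were within background in both libraries. Vav1 and Lcp2, with the highest CPM of the list at 215 and 113 CPM in library 1, are also used by myeloid cells. Ptprcap had 0 counts in both libraries, where a floor of 3 counts, used in place of an interval, is 0.0429 CPM in library 1 and 0.0710 CPM in library 2.

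Genes of other lymphocytes were in part above background. Of 9 natural killer genes, 4 were above it in library 1, against 58.9% of protein-coding genes, and 2 in both libraries, against 49.8%. Klrc1 (13.5 and 9.18 CPM) and Klrb1c (3.23 and 4.76 CPM) were above it in both. Ncr1, which encodes NKp46, was not in either (1.12 and 1.32 CPM), nor were Klre1, Klra8, Gzmk and S1pr5. Klrd1, which encodes CD94, the partner of the Klrc1 product, had 547 counts in library 1 and 29 in library 2. Klrd1 and Eomes (3.29 and 3.48 CPM) were above background in library 1 only. Of 5 regulatory T cell genes, 1 (Tnfrsf18) was above background in both libraries, against 49.8% of protein-coding genes. In library 1 it was 3, against 58.9%. Foxp3, the defining factor, was not above background in either (1.52 and 3.79 CPM). Il2ra was above it in library 1 only, at 22.2 and 7.17 CPM.

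Among 8 genes of IL-17-producing γδ and type 3 lymphoid cells, Il1r1, Maf and Cd163l1 were above background in both libraries, against 49.8% of protein-coding genes. The receptor gene Il23r was at 1.94 and 2.41 CPM, over the limit in library 1 but under it in library 2. Of 6 type 2 genes, Gata3 was above background in both libraries, against 49.8% of protein-coding genes, and Il4 had 9 and 6 counts. Il13 (104 and 40 counts) was above it in library 1 only, and Il9 (0 and 36 counts) in library 2 only. Of 6 B cell genes, Ighm was above background in both (33.1 and 6.81 CPM), against the same 49.8%. Cd79b was above it in library 1 only (3.25 and 1.32 CPM), and Ms4a1, Cd79a and Pax5 were not in either.

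Promoter sequence is described for all members with a promoter, whether or not they were lower in library 2. In the RefSeq table (GRCm38.p6) 22 of the 34 genes had a promoter, and the 250 bases before the start were searched on both strands for 3 motifs. No motif holds another, but matches of different motifs may share bases at their ends. The E-box form CACCTG was present in 10 of 22 member promoters (45.5%), against 17.1% of 27025 promoters. The RUNX form TGTGGT was present in 9 of 22 (40.9%), against 14.2%. The GATA form AGATAA was present in 2 of 22 (9.09%), against 10.3%. Shown are the promoters of Cd3g (chr9:44980432-44980681, minus strand), the most abundant CD3 gene, and Gzma (chr13:113100982-113101231, minus strand), the member with the lowest ratio of library 2 over library 1, each 5′ to 3′ toward the gene. Capitals mark matches on either strand. Cd3g held 2 E-box matches and 1 GATA match, and Gzma held 2 E-box matches and 1 RUNX match. A match describes the letters and is not evidence of binding. Cd5 and Tbx21, which were not 2-fold lower in library 2, also held CACCTG. Any relation of the motifs to the difference between the libraries was not tested.
Cd3g: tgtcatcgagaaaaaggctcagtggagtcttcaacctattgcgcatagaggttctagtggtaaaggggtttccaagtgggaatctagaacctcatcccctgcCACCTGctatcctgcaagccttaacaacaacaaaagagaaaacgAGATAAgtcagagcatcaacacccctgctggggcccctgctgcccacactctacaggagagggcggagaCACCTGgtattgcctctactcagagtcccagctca
Gzma: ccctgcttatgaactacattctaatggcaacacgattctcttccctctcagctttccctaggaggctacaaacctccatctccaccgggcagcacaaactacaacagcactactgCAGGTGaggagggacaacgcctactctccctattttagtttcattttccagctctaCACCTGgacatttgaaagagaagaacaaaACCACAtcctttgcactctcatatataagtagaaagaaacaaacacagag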

How the data were processed

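RNA sequencing of 2 libraries of 1 group was used. The authors deposited raw whole-number counts for Ensembl genes. GRCm38, HISAT2, StringTie, Trimmomatic and SAMtools appear, without versions, per the submitters' processing notes. For annotation, counting settings and strand, nothing is given in the sources used here. If counts were estimated from coverage, or both mates of a pair were counted, the counting intervals are too narrow. The last row, without an identifier, equals the column totals and was left out.

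Genes were annotated with GENCODE M21 on GRCm38, and 55227 of 55487 had an exon length (union of exons). Ratios used TMM from edgeR 4.0.16 (R 4.3.3) with a prior count of 1, for genes with at least 1 CPM in a library. With 1 group no differential test was possible. Intervals are exact Poisson for CPM and exact binomial for shares and ratios. A count of 0 allows up to 3 counts. The 50-base overlap used all GENCODE transcripts on both strands. The list symbols Trgv5 and Trgc1 match Tcrg-V5 and Tcrg-C1 through RefSeq synonyms. Scripts were tested on simulated data. Text names all 34 members and, of other lists and receptor segments, genes above background in both libraries and defining genes that were not. Members and lists were chosen with earlier results of these data known. Some genes of these lists are not reported here.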

Additional observations from a re-analysis of the deposited data

How the results depend on the processing

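The count of 16 members above background in both libraries was 11 with the 99th percentile of olfactory receptor genes, 17 with 331 vomeronasal receptor genes and 13 without division by length. With 1 library left out it was 16 to 25. The 21 members at least 2-fold lower in library 2 numbered 19 to 25 over total counts, DESeq2 size factors, other count filters, a prior count of 5 and background subtraction, and the 3 at least 2-fold higher became 5 with total counts and 1 with the median background subtracted. The members' median log2 ratio of -1.68 was -1.19 with total counts and -2.69 after that subtraction, which set 8 members to 0 in library 2, so that this median depends on the prior count. It had the same sign in every setting tried. The Trdc share of 42.5% became 46.3% after subtraction and 79.1% without division by length, and was 41.6% to 43.4% with 1 library left out. The CD3 level of 3.35% of Cd207 was 8.0% without division by length and 1.48% to 5.23% with 1 library left out. Ratios between libraries have no value with 1 library left out. No paired analysis was possible because both libraries belong to 1 group. Library 2 had fewer counts and a higher background, so genes of few transcripts are less certain there.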
